A study of Homo sapiens with 4 samples.

Results

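The hepatocyte lineage transcription factors described here are HNF4A, FOXA1, FOXA2, FOXA3, CEBPA, ONECUT1, ONECUT2 and PROX1. The rule picks them by gene symbol and uses no measured value. However, this list and the gene lists below were drawn up with earlier results of these data known. Counts over them are therefore not independent evidence. All 8 were found among the 18398 transcript rows of each library. RNA was sequenced from Huh1 and Huh7, 2 established human hepatocellular carcinoma cell lines, each treated with a negative control siRNA (NCsiRNA) or an siRNA against CDCA8 (CDCA8siRNA), which gave 4 libraries with 1 library per condition. Cells were harvested 48 h after transfection, at an siRNA dose that was 15 nM in the growth assays of these lines. CDCA8 encodes borealin, a subunit of the chromosomal passenger complex that acts in mitosis, and the comparison asks how its loss alters the transcriptome of liver cancer cells. The labels name no engineered allele, each line is a single tumor-derived line, and a second CDCA8 siRNA was not analysed here, so an effect of this siRNA sequence and of CDCA8 loss cannot be told apart.

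These factors form the core of the network that specifies and maintains hepatocytes. FOXA proteins open chromatin at liver genes early in development, HNF4A is a nuclear receptor that drives most of the hepatocyte program, and CEBPA is a leucine zipper factor of the mature, non-dividing hepatocyte that also restrains proliferation. ONECUT1 (HNF6) and ONECUT2 act in hepatoblasts and in biliary development, and PROX1 is a homeobox factor of hepatoblasts that can repress HNF4A-driven genes. The factors bind each other's regulatory regions and share targets such as albumin, apolipoproteins and clotting factors.

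The regions upstream of the RefSeq transcription starts are shown for CEBPA and HNF4A, the 2 members with the highest levels in Huh1, which fell after CDCA8siRNA, and for FOXA1, which was higher. RefSeq sequences on GRCh38.p14 were available for 6 of the 8 members, with 7 starts because HNF4A has 2, and FOXA2 and PROX1 had no entry. The last 30 of the 250 CEBPA bases, which hold its TATAAA, lie in the CEBPA exon as GENCODE 29 draws it. The FOXA1 stretch is 151 bases, since the 99 bases nearest to its start lie in an exon of another FOXA1 transcript and were left out, and it falls within the span GENCODE gives the gene. Each is printed 5′ to 3′ on the strand of its gene, and capitals mark motif matches. The CEBPA stretch lies at chr19:33302535-33302784 on the minus strand, the upstream HNF4A start at chr20:44355449-44355698 and the downstream one at chr20:44400989-44401238 on the plus strand, and the FOXA1 stretch at chr14:37595349-37595499 on the minus strand.
CEBPA: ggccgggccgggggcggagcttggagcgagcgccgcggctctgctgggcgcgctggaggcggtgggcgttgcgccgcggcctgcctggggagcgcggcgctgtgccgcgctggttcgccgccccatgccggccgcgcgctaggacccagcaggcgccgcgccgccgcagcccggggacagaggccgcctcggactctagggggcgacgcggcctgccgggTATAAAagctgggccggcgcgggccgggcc
HNF4A upstream start: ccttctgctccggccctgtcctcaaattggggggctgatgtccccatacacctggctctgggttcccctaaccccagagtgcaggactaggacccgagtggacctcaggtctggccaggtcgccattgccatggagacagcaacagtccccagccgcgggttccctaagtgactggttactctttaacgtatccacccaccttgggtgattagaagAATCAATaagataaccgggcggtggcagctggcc
HNF4A downstream start: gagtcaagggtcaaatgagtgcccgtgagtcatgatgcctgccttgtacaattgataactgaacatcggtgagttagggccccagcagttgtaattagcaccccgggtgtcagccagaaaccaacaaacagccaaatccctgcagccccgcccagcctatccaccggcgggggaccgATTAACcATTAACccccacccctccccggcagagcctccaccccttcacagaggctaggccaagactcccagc
FOXA1: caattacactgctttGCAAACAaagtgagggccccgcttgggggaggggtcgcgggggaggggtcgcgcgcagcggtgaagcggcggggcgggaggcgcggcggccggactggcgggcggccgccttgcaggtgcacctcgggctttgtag

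The 250 bases before each start were searched for letters typical of liver factor sites, on both strands: TGTTTNC for FOXA, ATTGANT for ONECUT, GTTAAT for HNF1, TTGCNNAA for C/EBP and CAAAGNNCA for HNF4. TATAAA was searched on the strand of the gene. The downstream HNF4A start, the one that the HNF4A row belongs to, held 2 HNF1 matches at 73 and 66 bases before the start, and 6.23% of all 35116 RefSeq promoters held at least 1. The upstream HNF4A start held 1 ONECUT match (AATCAAT) at 34 bases before the start, a motif present in 6.68% of all promoters. FOXA1 held 1 FOXA match (GCAAACA) at 235 bases before its start, and 15.5% of all promoters did. CEBPA and FOXA3 each held a TATAAA at 30 bases before the start, found in 6.8% of all promoters. ONECUT1 and ONECUT2 held no match to any of the 6 motifs, and no member held the C/EBP or HNF4 letters, which 9.05% and 4.44% of all promoters held. No match overlapped a match of another motif. The CEBPA stretch was 81.2% G and C, against a median of 58% over all promoters. These matches describe letters in this window and no binding was measured.

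The libraries held 12197606 to 13384836 reads, as recovered from the value that 1 read takes in the deposited RPKM (read number divided by transcript length and by library depth). CDCA8 itself was at 24.1 RPKM with NCsiRNA and 5.86 RPKM with CDCA8siRNA in Huh1, and at 51.5 and 7.36 RPKM in Huh7, so that 24.3% and 14.3% of the control level remained. With 1 library per condition, no value within a line has a replicate, and the error given beside a difference within a line is the SD from counting reads only, from approximate read numbers. The limma test used below takes both lines together. A transcript's own disagreement between Huh1 and Huh7 gives 1 residual degree of freedom. limma draws it toward a spread shared by transcripts of similar level, which weighs as 7.48 degrees of freedom. A call therefore rests mostly on the spread over many transcripts, not on the transcript's own. The p-values do not measure the spread between cultures.

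All 8 factors were expressed in all 4 libraries. Where paired levels of a line follow, the first is with NCsiRNA and the second with CDCA8siRNA. CEBPA had the highest level of the 8 with NCsiRNA, at 94.4 RPKM in Huh1 and 68.9 RPKM in Huh7. With CDCA8siRNA the highest was HNF4A, at 59.1 RPKM in Huh1 and 38.8 RPKM in Huh7. ONECUT2 was the lowest in every library, between 3.69 and 5.95 RPKM. The median of the 8 was 11.8 and 10.3 RPKM in the Huh1 libraries with NCsiRNA and CDCA8siRNA, and 26.5 and 26.0 RPKM in the Huh7 libraries, where the median of all transcripts at 1 RPKM or more lay between 12.2 and 12.4 RPKM. Of 28 pairs of neighbours in the order of levels, 9 differed by less than 2 SD of counting. Among these were FOXA2 and FOXA3 in Huh1 with either siRNA, PROX1 and HNF4A in Huh7 with NCsiRNA, and CEBPA with both of its neighbours, PROX1 and FOXA1, in Huh7 with CDCA8siRNA.

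**Figure D1:**
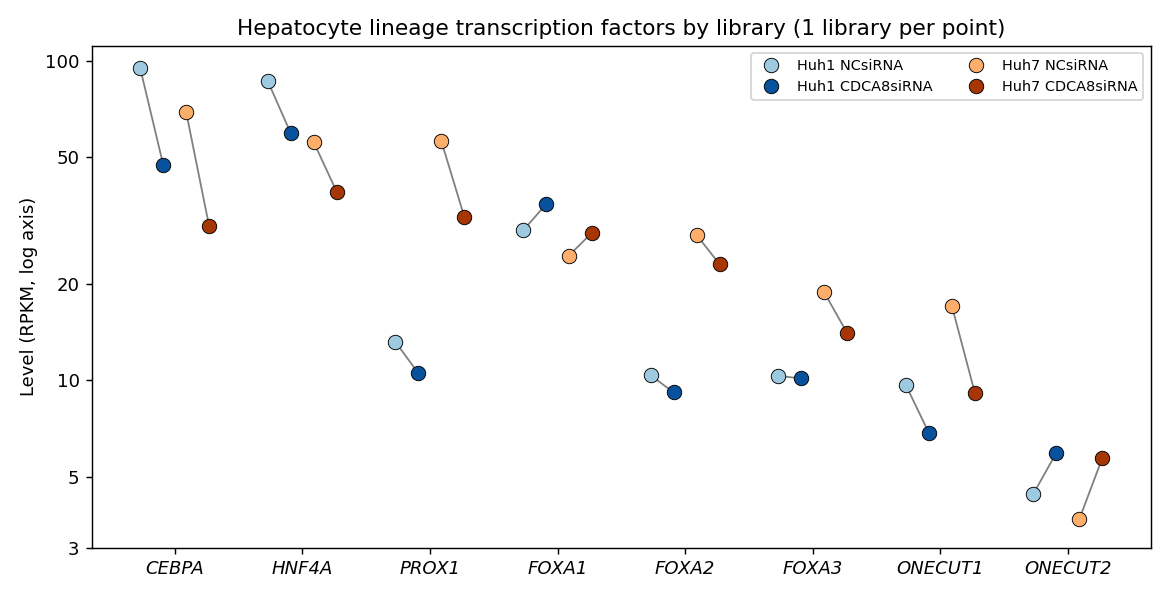
Level of each factor in RPKM on a log axis, 1 point per library, with grey lines joining NCsiRNA to CDCA8siRNA within a line. CEBPA was at 94.4 and 47.2 RPKM in Huh1 and at 68.9 and 30.3 RPKM in Huh7, while FOXA1 and ONECUT2 were higher with CDCA8siRNA in both lines.

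After CDCA8siRNA, 6 of the 8 factors were lower and FOXA1 and ONECUT2 were higher, in both lines. Over both lines 4 of 8 members fell in the limma test (adjusted p under 0.05), CEBPA, HNF4A, ONECUT1 and PROX1, where 2.65% of 12148 transcripts tested fell. None of the 8 rose, where 3.74% of transcripts rose. On the log2(RPKM + 1) scale the members had a median difference of −0.23 in Huh1 and −0.45 in Huh7, where the median of all transcripts was 0.02 and 0.03. In bulk RNA, fewer cells that express a factor and less RNA per cell cannot be told apart. The limma calls depended on the model: CEBPA alone was called without the mean-variance trend (adjusted p = 0.0499), and no member was called without the cell line as a covariate or when transcripts under 1 RPKM were kept.

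CEBPA had the largest difference of the 8 in both lines. Its level was 49.9% of control in Huh1 and 44.0% in Huh7. It differed by −0.99 (counting SD 0.0428) in Huh1 and by −1.16 (counting SD 0.0539) in Huh7 on the log2(RPKM + 1) scale. Over both lines it fell by 1.07 ± 0.0906 (SE) on this scale, with an adjusted p of 0.00196 in limma, and was the 9th of 12148 transcripts by p-value. It was the only member past the 2-fold line in a single pair, in Huh7, where 1.57% of 11565 transcripts were past it. In Huh1, 0 of 8 members and 0.494% of 10940 transcripts were past it, CEBPA lying just inside because of the added 1 RPKM. The CEBPA row (NM_004364) belongs to a single-exon gene on chromosome 19 (33299934 to 33302564, minus strand, GRCh38). Its exon shares 659 bases with AC008738.3 and 482 bases with AC008738.5 on the opposite strand, and reads of these genes cannot be told apart from CEBPA reads if strand was not used in counting, which the sources used here do not give.

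HNF4A (chromosome 20, 44355700 to 44434596, plus strand) fell by nearly the same amount in both lines. Its level was 86.1 and 59.1 RPKM in Huh1 and at 55.4 and 38.8 RPKM in Huh7. These were differences of −0.53 (counting SD 0.0260) and −0.50 (counting SD 0.0332) on the log2(RPKM + 1) scale. Over both lines the fall was 0.52 ± 0.0854 (SE), with an adjusted p of 0.0146. The single row for HNF4A (NM_000457) stands for a transcript from the downstream start, and transcripts of the upstream start printed above were not analysed separately.

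The 2 ONECUT factors had differences of opposite sign in both lines. ONECUT1 (chromosome 15, 52756989 to 52791078, minus strand) was at 9.66 and 6.85 RPKM in Huh1 and at 17.1 and 9.16 RPKM in Huh7. Over both lines it fell by 0.64 ± 0.125 (SE) on the log2(RPKM + 1) scale, with an adjusted p of 0.0247. ONECUT2 (chromosome 18, 57435685 to 57491297, plus strand) was at 4.43 and 5.95 RPKM in Huh1 and at 3.69 and 5.73 RPKM in Huh7. Its difference of 0.44 ± 0.122 (SE) over both lines missed the threshold (adjusted p = 0.0718), and passed it (adjusted p = 0.0433) when only transcripts with a mean of at least 100 reads were tested. The ratio of ONECUT1 to ONECUT2 in RPKM was 2.18 in Huh1 and 4.64 in Huh7 with NCsiRNA, and 1.15 and 1.60 with CDCA8siRNA. No test was run on this ratio.

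PROX1 (chromosome 1, 213983181 to 214041502, plus strand) was at 13.2 and 10.5 RPKM in Huh1 and at 55.9 and 32.4 RPKM in Huh7. The difference was −0.30 (counting SD 0.0859) in Huh1 and −0.77 (counting SD 0.0506) in Huh7 on the log2(RPKM + 1) scale. Over both lines it fell by 0.53 ± 0.125 (SE) with an adjusted p of 0.0418, the nearest to the threshold of the 4, and the adjusted p was 0.0511 with a pseudocount of 0.1 RPKM. PROX1 also had the largest gap between the lines in siRNA effect, −0.47 with a counting SD of 0.0997. ONECUT1 and FOXA3 followed at −0.39 (counting SD 0.162) and −0.37 (counting SD 0.149), all larger in Huh7. With 1 library per condition these gaps could not be tested.

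The FOXA factors did not pass the test. FOXA1 (chromosome 14, 37589984 to 37596059, minus strand) was at 29.4 and 35.5 RPKM in Huh1 and at 24.6 and 28.97 RPKM in Huh7, a difference of 0.25 ± 0.0926 (SE) on the log2(RPKM + 1) scale (adjusted p = 0.158). FOXA2 (chromosome 20, 22581005 to 22585455, minus strand) was at 10.4 and 9.17 RPKM in Huh1 and at 28.5 and 23.1 RPKM in Huh7, a difference of −0.23 ± 0.102 (SE) with an adjusted p of 0.230. FOXA3 (chromosome 19, 45863989 to 45873797, plus strand) was at 10.3 and 10.1 RPKM in Huh1, less than the counting SD apart, and at 18.8 and 14.1 RPKM in Huh7. Its difference over both lines was −0.21 ± 0.1205 (SE) with an adjusted p of 0.348. FOXA2 shares 70 exon bases with AL121722.1 on the same strand, so its reads may be split.

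**Figure D2:**
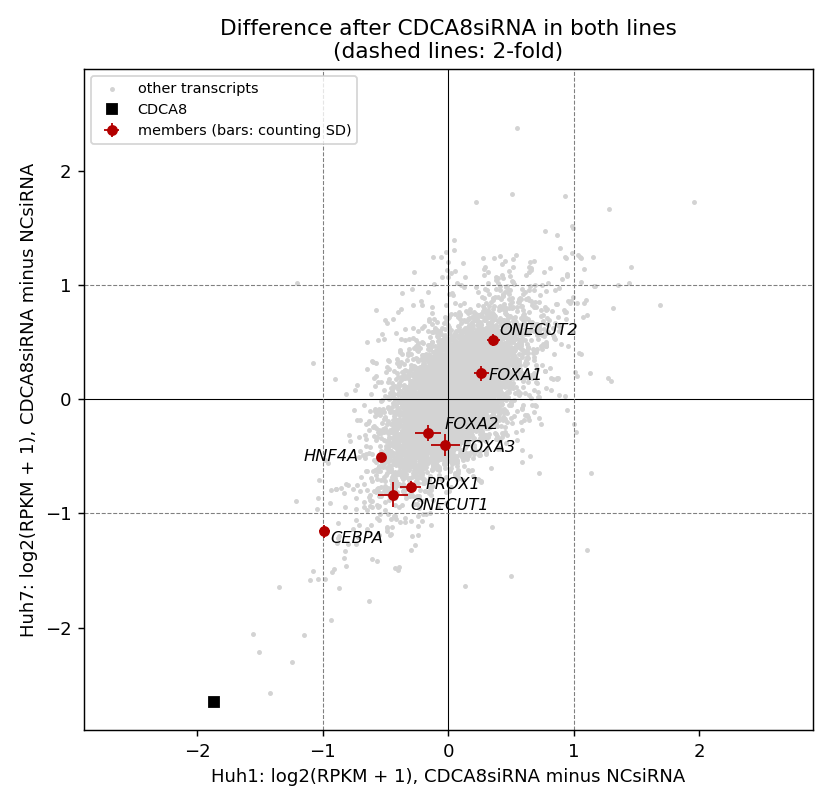
Difference of log2(RPKM + 1) between CDCA8siRNA and NCsiRNA in Huh1 (x axis) and Huh7 (y axis), for 10357 transcripts with at least 1 RPKM in each line (grey), the 8 factors (red, bars for the counting SD) and CDCA8 (black square). CEBPA lies farthest toward the lower left of the 8 at −0.99 and −1.16, and FOXA1 and ONECUT2 lie above 0 on both axes.

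The FOXA genes were also compared as a family, since they bind the same sites. The sum of the 3 genes was 50.1 RPKM with NCsiRNA and 54.8 RPKM with CDCA8siRNA in Huh1, and 71.9 and 66.1 RPKM in Huh7. FOXA1 made up 58.7% of that sum in Huh1 and 34.2% in Huh7 with NCsiRNA, and 64.8% and 43.8% with CDCA8siRNA. FOXA2 made up 20.7% in Huh1 and 39.6% in Huh7 with NCsiRNA, so FOXA1 led the family in Huh1 and FOXA2 led it in Huh7. With CDCA8siRNA FOXA1 led in both lines, since FOXA2 made up 34.9% in Huh7. These shares were not tested.

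**Figure D3:**
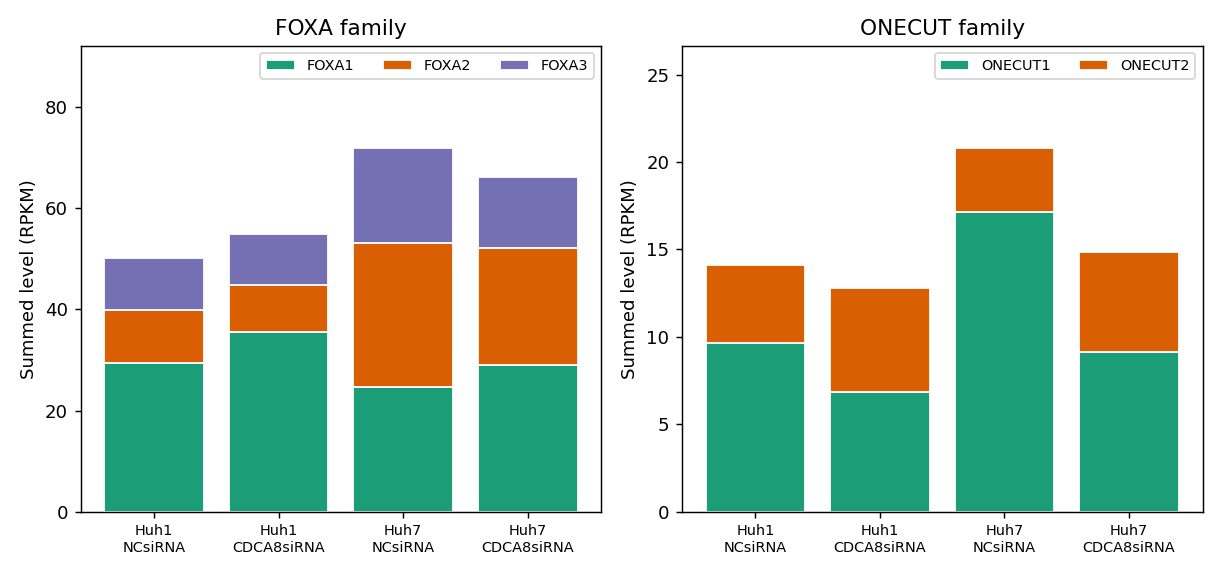
Stacked levels in RPKM of the FOXA genes (left) and the ONECUT genes (right), 1 bar per library. The FOXA1 share was 58.7% and 64.8% in Huh1 and 34.2% and 43.8% in Huh7, and the ONECUT1 part was smaller with CDCA8siRNA in both lines.

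Levels of single factors differed between the lines, while the factor with the highest level was the same in both with either siRNA. PROX1 and FOXA2 were higher in Huh7 by more than 2-fold with either siRNA, the only 2 of the 8 members to reach it, where 27.2% of 11896 transcripts did with NCsiRNA and 27.5% of 12005 with CDCA8siRNA. PROX1 was 4.24-fold higher in Huh7 with NCsiRNA and 3.08-fold higher with CDCA8siRNA, in RPKM, and FOXA2 was 2.74-fold and 2.52-fold higher. In limma 7 of 8 members differed between the lines, where 71.2% of 12148 transcripts did, so that most transcripts of any kind were called in this comparison. PROX1, FOXA2, FOXA3 and ONECUT1 were higher in Huh7, by 1.77, 1.31, 0.62 and 0.57 on the log2(RPKM + 1) scale, with adjusted p-values of 3e-06, 6e-06, 0.00157 and 0.00321. HNF4A, CEBPA and FOXA1 were lower in Huh7, with log2 differences of −0.61, −0.54 and −0.27 and adjusted p-values of 0.00023, 0.000708 and 0.0280. ONECUT2 differed by −0.13 (limma adjusted p = 0.366), and by −0.32 with quantile normalization, where it was called (adjusted p = 0.0387). The median over all transcripts was 0.14 higher in Huh7, and the directions of the members were the same under both other scalings. Only 3 members were called without the siRNA as a covariate (FOXA2, FOXA3 and PROX1) or with transcripts under 1 RPKM kept (FOXA2, HNF4A and PROX1). The FOXA1 call was also lost without the trend (limma adjusted p = 0.0585). With 1 library per line and siRNA, line and culture cannot be told apart.

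**Figure D4:**
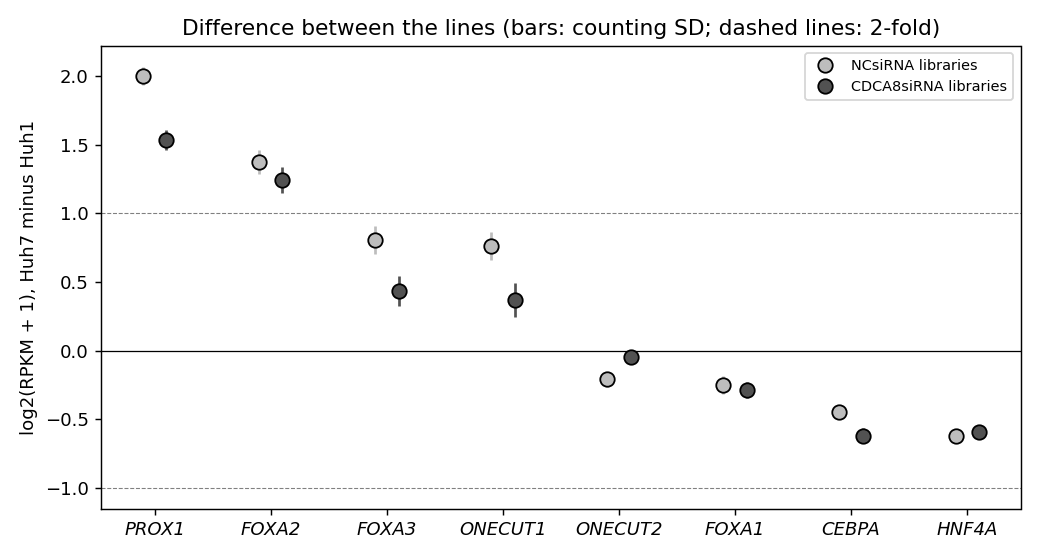
Difference of log2(RPKM + 1) between Huh7 and Huh1 for each factor, with NCsiRNA (light) and CDCA8siRNA (dark), bars showing the counting SD and dashed lines 2-fold. PROX1 and FOXA2 lie above the 2-fold line with both siRNAs, and HNF4A, CEBPA and FOXA1 lie below 0.

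Of 23 partner factors of the hepatocyte network, 22 were tested and 2 fell after CDCA8siRNA while 0 rose, where 2.65% and 3.74% of all transcripts did. No partner was called without the trend, without the covariate or with transcripts under 1 RPKM kept, and 5 fell with quantile normalization. NR1H4, the bile acid receptor FXR, was at 41.9 and 22.1 RPKM in Huh1 and at 6.65 and 3.44 RPKM in Huh7 (log2 difference −0.84, limma adjusted p = 0.00495). CEBPG, a leucine zipper partner of C/EBP proteins, was at 30.03 and 22.0 RPKM in Huh1 and at 39.7 and 19.0 RPKM in Huh7 (log2 difference −0.73, adjusted p = 0.0222). In Huh7 alone CEBPG and NR0B2 were lower past the 2-fold line, 2 of 21 partners, where 0.7% of 11565 transcripts were. NR0B2 had opposite signs in the lines, at 5.70 and 8.47 RPKM in Huh1 and at 5.29 and 1.15 RPKM in Huh7, the last from about 16 reads. The median of the list was −0.19. Between the lines 7 of the 22 were higher in Huh7 and 11 lower, where 71.2% of all transcripts were called, and 3 and 6 of 23 were when transcripts under 1 RPKM were kept. NR2F1 (COUP-TFI, log2 difference 3.87) was higher in Huh7 and under 1 RPKM in both Huh1 libraries. NR1H4 (−2.43), the xenobiotic receptor NR1I2 (−2.22), CREB3L3 (−1.91) and CEBPB (−1.72) were lower in Huh7, where NR1I2 was listed at 0 in both libraries.

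More hepatocyte genes known as targets of these factors fell than rose, in a list drawn up with earlier results of these data known. Of 27 such genes 21 were tested, of which 11 fell and 0 rose after CDCA8siRNA in limma, where 2.65% of all transcripts fell, and the median of the 21 was −0.40. Of the 17 at 1 RPKM or more in each line, 13 were lower in both lines by sign, 2 were higher in both, and 2, AFP and TTR, had opposite signs. Some of these signs lay within the counting SD. They were APOA2 (0.007, counting SD 0.0658) and APOH (−0.04, counting SD 0.0784) in Huh7, and TTR (−0.15, counting SD 0.216) in Huh1. The 11 were ALB, TF, SERPINA1, AHSG, APOA1, APOB, APOC3, FGA, FGB, FGG and F7. ALB, the main plasma protein, was at 3447 and 2684 RPKM in Huh1 and at 1166 and 721 RPKM in Huh7. APOB, the structural protein of very low density lipoprotein, was at 217 and 144 RPKM in Huh1 and at 130.2 and 74.2 RPKM in Huh7. The fibrinogen chains FGA, FGB and FGG fell by 0.52, 0.40 and 0.55 on the log2(RPKM + 1) scale, with limma adjusted p-values of 0.0112, 0.0219 and 0.0098. APOC3, an inhibitor of lipoprotein lipase, had the largest fall of the list, 1.08 (adjusted p = 0.0079), from a mean of only 36.1 reads per library. The adjusted p-values of all 11 lay between 0.005 and 0.0476, and none of the 11 was called without the trend, without the covariate or when transcripts under 1 RPKM were kept. When only transcripts with a mean of at least 100 reads were tested, 9 of 15 fell, where 4.71% of all transcripts did. Of the 11, APOC3 left this set for its few reads, and AHSG because its row had no matched transcript length. In Huh1 alone 15 of the 21 were lower and 6 higher, with 0 past the 2-fold line. There CPS1 was at 95.03 and 49.2 RPKM (−0.94, counting SD 0.0284). It was under 1 RPKM in both Huh7 libraries and was not called over both lines (limma adjusted p = 0.382).

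**Figure D5:**
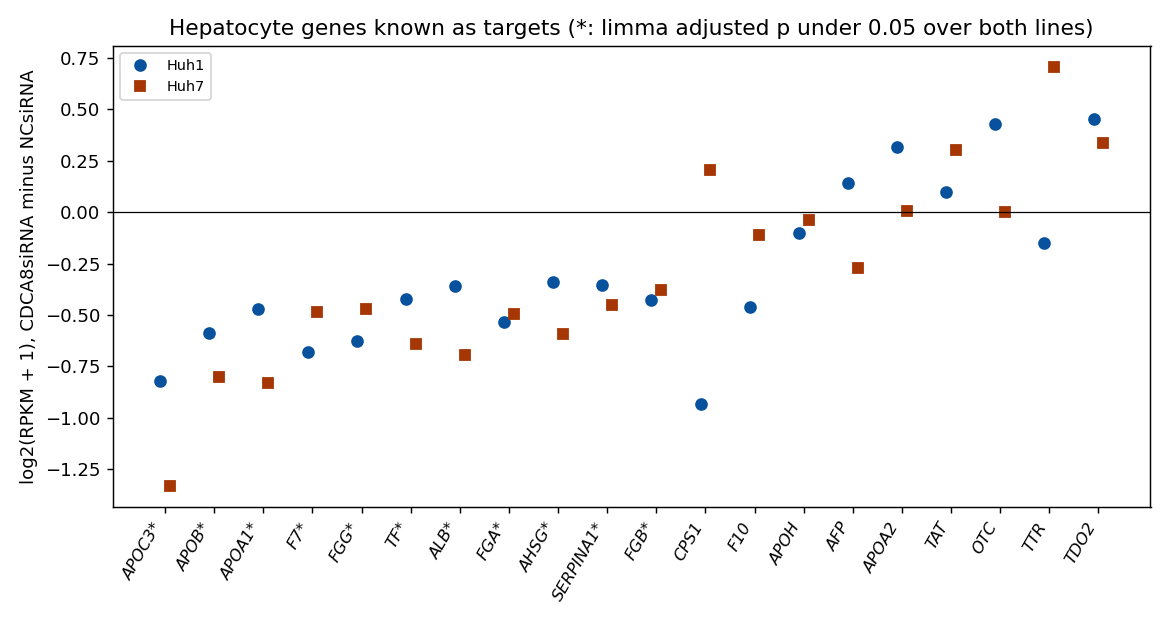
Difference of log2(RPKM + 1) between CDCA8siRNA and NCsiRNA in Huh1 (circles) and Huh7 (squares) for 20 of the 21 hepatocyte target genes tested, ordered by the mean of both lines. Stars mark the 11 genes with an adjusted p under 0.05, all of which lie below 0 in both lines. The Huh7 points of CPS1, OTC and TAT come from levels under 1 RPKM and give no direction.

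Between the lines 7 of the 21 target genes were higher in Huh7 and 13 lower, in a comparison that called 71.2% of all transcripts. Without the siRNA as a covariate 3 were higher and 10 lower. With transcripts under 1 RPKM kept, 5 and 12 of 27 were. CPS1, the first enzyme of the urea cycle, was at 95.03 RPKM in Huh1 and 0.0996 RPKM in Huh7 with NCsiRNA. Its log2 difference was −6.45 with NCsiRNA, and −5.88 in limma over both siRNAs. AFP, the fetal albumin relative, was at 24.8 RPKM in Huh1 and 865 RPKM in Huh7 with NCsiRNA (5.07, and 4.86 in limma). By the limma differences, APOA2 (−2.86) and APOH (−2.02) were lower in Huh7, and TTR (2.74) and the clotting factor F10 (2.53) were higher. The other 6 target genes of the 27 stayed under 1 RPKM in every library. Among them, CYP7A1, CYP3A4, PCK1 and G6PC are enzymes of the mature hepatocyte, and F9 is a clotting factor.

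Of 10 biliary and progenitor genes, all tested, 1 rose after CDCA8siRNA and 0 fell, where 3.74% of all transcripts rose and 2.65% fell. SOX4 was at 39.3 and 58.9 RPKM in Huh1 and at 45.5 and 54.7 RPKM in Huh7 (log2 difference 0.42, limma adjusted p = 0.0491). The SOX4 call was lost with a pseudocount of 0.1 RPKM (adjusted p = 0.0577), without the trend (0.145), without the covariate and with transcripts under 1 RPKM kept (0.448). SPP1, osteopontin, was past the 2-fold line in Huh7, at 13.1 and 28.6 RPKM, and was at 2107 and 2039 RPKM in Huh1. The median of this list was 0.03, and 1 gene of it is also among the partner factors. Of 13 markers of fibroblasts, endothelium and blood cells 12 were in the files, and 5 were tested, with 0 called after CDCA8siRNA. Of the 5, COL1A1, COL1A2, COL3A1 and ACTA2 were under 1 RPKM in both Huh1 libraries. The test over both lines could hardly call a change in Huh7 alone, so the 0 decides nothing for these. COL1A2 differed by 0.84 (counting SD 0.0384) in Huh7 and by 0.43 in limma (adjusted p = 0.205). The summed level of the 12 markers was 23.5 and 16.9 RPKM in Huh1, mostly CD68, and 145 and 192 RPKM in Huh7, mostly COL1A1 and COL1A2. In Huh7 the collagens had higher values with CDCA8siRNA, with COL1A1 at 107 and 125 RPKM, COL1A2 at 31.4 and 56.9 RPKM and COL3A1 at 1.89 and 4.14 RPKM. CD68, at 3.71 and 3.73 RPKM, differed by less than the counting SD. ACTA2, at 0.72 and 1.06 RPKM, was near the minimum of 1 RPKM. The part of these markers in the lower levels of the hepatocyte factors was not tested. CDH5 was listed at 0 in all 4 libraries, and VWF, PTPRC, CD3E, MS4A1 and HBB stayed under 1 RPKM.

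For each factor the nearest profiles over the 4 libraries were found by the distance between log2(RPKM + 1) values after subtracting each gene's mean. CEBPA was the least matched, with ORM1, an acute phase plasma protein, at a distance of 0.255 and KNG1, kininogen, at 0.265. ORM1 was at 261 and 148 RPKM in Huh1 and at 167 and 86.5 RPKM in Huh7. The first neighbours of the others lay between 0.0147 and 0.0827, with NPM1 and RBKS nearest to HNF4A, CHPF2 and YIPF5 to FOXA1, ACTN1 and RTKN2 to FOXA2, and CDC25B and KIAA0355 to FOXA3. CTDSP2 and C21orf91 were nearest to ONECUT1, GPAA1 and CXXC4 to ONECUT2, and CLSTN3 and TBCEL to PROX1. With 4 points that share line and siRNA, such likeness is only a description.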

How the data were processed

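RNA of 4 libraries, 1 per cell line and siRNA, was made with the Illumina TruSeq RNA kit. The authors deposited RPKM values for 18398 RefSeq transcripts per library. The unit was deduced from the values. The submitters' processing notes name CASAVA 1.8.2, TopHat2 2.0.9 and hg19, while the counter, annotation and filters are not given in the sources used here. Reads per gene were approximated from RPKM, GENCODE 29 lengths (GRCh38, 17768 rows matched) and the value of 1 read, and served only to describe precision. Of low values, 39.1 to 43.0% were whole reads within 0.05, so no count test was used. The authors' own gene selection could not be repeated.

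Differences were taken on log2(RPKM + 1), for rows reaching 1 RPKM in 1 or more of the libraries compared. A 2-fold difference was called within pairs, without a test. limma 3.58.1 in R 4.3.3 (lmFit, eBayes with trend) was fitted to 12148 rows of the 4 libraries with line and siRNA as terms, with Benjamini-Hochberg adjustment. Simulated data were used for a trial of the code. There limma made more false calls than its nominal rate among transcripts of few reads. It kept its rate for p-values from a mean of 100 reads upward, in the simulated data only. An alternative restricted to transcripts with a mean of at least 100 reads was therefore added after seeing the data, beside 7 other alternatives. It also left out rows without a matched length. Whether limma keeps its rate in the 4 measured libraries was not tested. In these, the gap between the lines in siRNA effect varied by transcript, with −0.47 for PROX1 and 0.03 for HNF4A. The named genes are the members, CDCA8, list genes called by limma for the siRNA, up to 6 per list of partner and target genes called between the lines, and 2 nearest profiles per member. Other list genes were named after their values were seen. The values of 1 partner factor and 1 target gene are not reported here. The members and lists were chosen with earlier results of these data known. Python 3.11.15 with numpy 2.4.6 and pandas 2.3.3 was used.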

Additional observations from a re-analysis of the deposited data

How the results depend on the processing

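No member changed direction under any alternative. The number of members called for the siRNA over both lines was 4. It became 0 when transcripts under 1 RPKM were kept, 1 (CEBPA) without the trend and 0 without the cell line as a covariate. It was 3, without PROX1, with a pseudocount of 0.1 RPKM. With a mean of at least 100 reads it was 5, ONECUT2 being added. Between the lines the number was 7. It became 3 (FOXA2, HNF4A, PROX1) with transcripts under 1 RPKM kept and 3 (FOXA2, FOXA3, PROX1) without the siRNA as a covariate. It was 6, without FOXA1, when the trend was left out, and 8, with ONECUT2, under quantile normalization. In Huh1, 0 members were past 2-fold, and 1 (CEBPA) was with a pseudocount of 0.1 RPKM or upper quartile scaling. Over all transcripts limma called 776 for the siRNA, against 1260 with quantile normalization, 45 without the trend, 0 with low transcripts kept (2050 at an unadjusted p under 0.05) and 0 without the covariate (75 at an unadjusted p under 0.05). Between the lines it called 8654, against 5433 with low transcripts kept. A pseudocount of 0.1 RPKM gave 164 calls of 2-fold in place of 54 in Huh1, and 422 in place of 182 in Huh7. Quantile normalization changed the higher and lower calls from 35 and 19 to 22 and 20 in Huh1. Between the lines by 2-fold it changed them from 2028 and 1211 to 1644 and 1504 with NCsiRNA and from 2089 and 1213 to 1681 and 1509 with CDCA8siRNA. In limma it changed those between the lines from 5162 and 3492 to 4358 and 4353, and those for the siRNA from 454 and 322 to 635 and 625, so that 5.15% of transcripts fell in place of 2.65%. The cause was not tested. With 189 to 7428 reads per member and library, depth limited ONECUT1, FOXA3 and FOXA2 most. The fit with the cell line as a term pairs the siRNAs within each line, and the fit without that covariate is the unpaired one. No pairing by replicate number could be made, and no replicate left out, because each condition has 1 library.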
